A study of Sus scrofa with 4 samples.

Results

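Mitochondrial genes for metabolite carriers, protein import, the mitochondrial ribosome, membrane fusion, chaperones and biogenesis were followed in porcine oocytes in which the deacetylase SIRT6 was inhibited. The genes were the rows of the count table whose symbols match a rule on names (SLC25A, UCP, VDAC, TOMM, TIMM, MRPL, MRPS and CHCHD genes, and single genes such as MFN1, PHB2, HSPD1, HSPE1, LONP1, TFAM and PPARGC1A), which gave 50 of the 4381 genes listed. RNA was sequenced from pooled M II oocytes in 4 libraries, 2 from the control group and 2 from the SIRT6-inhibited group. Cumulus-oocyte complexes from abattoir ovaries were kept in maturation culture for 42 to 44 h, and the SIRT6-inhibited group received 100 μM SIRT6-IN-1, a compound that enters cells and blocks the activity of SIRT6. The compound was dissolved in DMSO, which stayed at or below 0.1% of the medium, and it is not stated whether control oocytes received DMSO. Each group had 100 oocytes, and the number in each library is not stated. The labels name Smart-seq2, in which full-length cDNA from little RNA is amplified, before a NEBNext library was made from fragmented RNA with random primers. The methods of the study give RNA extraction on columns and the same library kit but do not name Smart-seq2, and which account holds is not clear. Reads were 150 bp and paired-end. No source says that the libraries of a group came from separate maturation cultures or animals, so the p-values measure only the spread between these libraries, which may be technical.

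Mitochondria of the oocyte are inherited by the embryo, and they supply ATP for spindle assembly and the meiotic divisions. Most of their proteins are made in the cytosol, pass the outer membrane through the TOM complex and are folded inside by chaperones, while carriers of the SLC25 family move nucleotides, phosphate, cofactors and metabolites across the inner membrane. A ribosome of their own, built from proteins encoded in the nucleus, translates the few subunits that mitochondrial DNA encodes.

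Control library 1 held 4646129 counts on the listed genes and control library 2 held 3405960, while SIRT6-inhibited library 1 held 3239200 and SIRT6-inhibited library 2 held 4972602. Levels below 3 counts, or 0.603 to 0.926 CPM (counts scaled to a library total of 1e6), could not be told from 0. The 50 mitochondrial genes took 0.638% of the counts in control library 1 (exact 95% interval 0.631 to 0.646), 0.638% in control library 2 (0.630 to 0.647), 0.594% in SIRT6-inhibited library 1 (0.585 to 0.602) and 0.631% in SIRT6-inhibited library 2 (0.624 to 0.638). SIRT6-inhibited library 1 was thus the lowest, and SIRT6-inhibited library 2 lay near the control libraries. Both the intervals and the limit of 3 counts leave out all error but that of counting, since copies made by amplification are not separate molecules. In normalized CPM, which are counts relative to library totals scaled by edgeR's TMM factors, the genes summed to 6263 ± 200.2 (SD, n = 2) in controls and 6255 ± 398 (SD, n = 2) in SIRT6-inhibited oocytes. The sum did not move beyond the spread between libraries, and in pooled oocytes fewer cells of a type and less RNA per cell cannot be told apart.

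Markers of the oocyte were measured as a check of the labels. All 11 oocyte markers listed in the table, of 14 searched for, were detected, and their summed level was 77931 and 79498 normalized CPM in the control libraries and 77194 and 78664 normalized CPM in the SIRT6-inhibited libraries, with KPNA7, an importin of oocytes and early embryos, the most abundant. Of the 11, 2 were lower without overlap at an unadjusted p-value under 0.05 in edgeR, where 5.99% of all tested genes were called lower and 22.2% were lower without overlap; DESeq2 called 1 of them (ZP2), and 0 had an adjusted one in either tool with all 4 libraries. GDF9, a growth factor secreted by the oocyte, had 1323 and 2988 normalized CPM in controls and 978 and 393 in SIRT6-inhibited oocytes (log2 fold change -1.65, SE 0.50), and ZP2, of the zona pellucida, had 3710 and 4329.6 in controls and 3419 and 2785 in SIRT6-inhibited oocytes (-0.37, SE 0.14). Neither had an unadjusted p-value under 0.05 without control library 2 (-0.95 for GDF9 and -0.26 for ZP2), nor had ZP2 without SIRT6-inhibited library 2 (-0.24), while GDF9 passed adjustment without SIRT6-inhibited library 1 (-2.46) and without SIRT6-inhibited library 2 (-1.14). The number of oocyte markers called moved with the library left out, and so did the share of all genes called, which is given below. Of 22 markers of cumulus and granulosa cells, 19 were listed, of which FSHR, LHCGR, AMH and TNFAIP6 had 0 counts in all 4 libraries and the other 15, among them PTGS2, CYP11A1, STAR, INHBA, SERPINE2 and PGR, had counts in at least 1. Of the 9 that were tested, 7 had lower fitted levels, the groups did not overlap for 4 lower and 1 higher (22.2% and 17.9% of all tested genes), and 0 had an unadjusted or adjusted p-value under 0.05 in edgeR or DESeq2 with all 4 libraries. At an unadjusted one edgeR called SERPINE2 without SIRT6-inhibited library 1 and VCAN and PGR without SIRT6-inhibited library 2. The summed level of these 19 was 263 and 282 normalized CPM in controls and 130 and 272 normalized CPM in SIRT6-inhibited oocytes, with VCAN, a matrix proteoglycan, the most abundant. Of 8 blood and immune markers, 6 were listed and 5 of them had 0 counts in all 4 libraries, and CD68 had 4 counts in control library 2. SIRT6-inhibited library 1, the lowest in the mitochondrial share, was also the lowest in cumulus and granulosa markers, whose part in the results was not tested.

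Between 41 and 43 of the 50 genes had at least 3 counts in each library, and UCP3, an uncoupling protein best known from muscle, had 0 counts in all 4. The plot of levels by library spans from 0 to 1052 normalized CPM. SLC25A51, MRPL15, HSPE1, MRPL16, VDAC1 and TOMM7, the 6 genes with the highest normalized CPM, together took 60.6% and 58.0% of the counts of the 50 genes in controls and 58.8% and 63.9% in SIRT6-inhibited oocytes. These are shares of reads, and since CPM are not corrected for transcript length they do not rank the genes by number of transcripts. At the other end, 8 genes had too few counts to be tested, the highest with 19 counts over all 4 libraries. Genes under the rule for TIMM proteins of the inner membrane translocases, MFN2, OPA1, DNM1L and POLG were not analysed here.

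**Figure D1:**
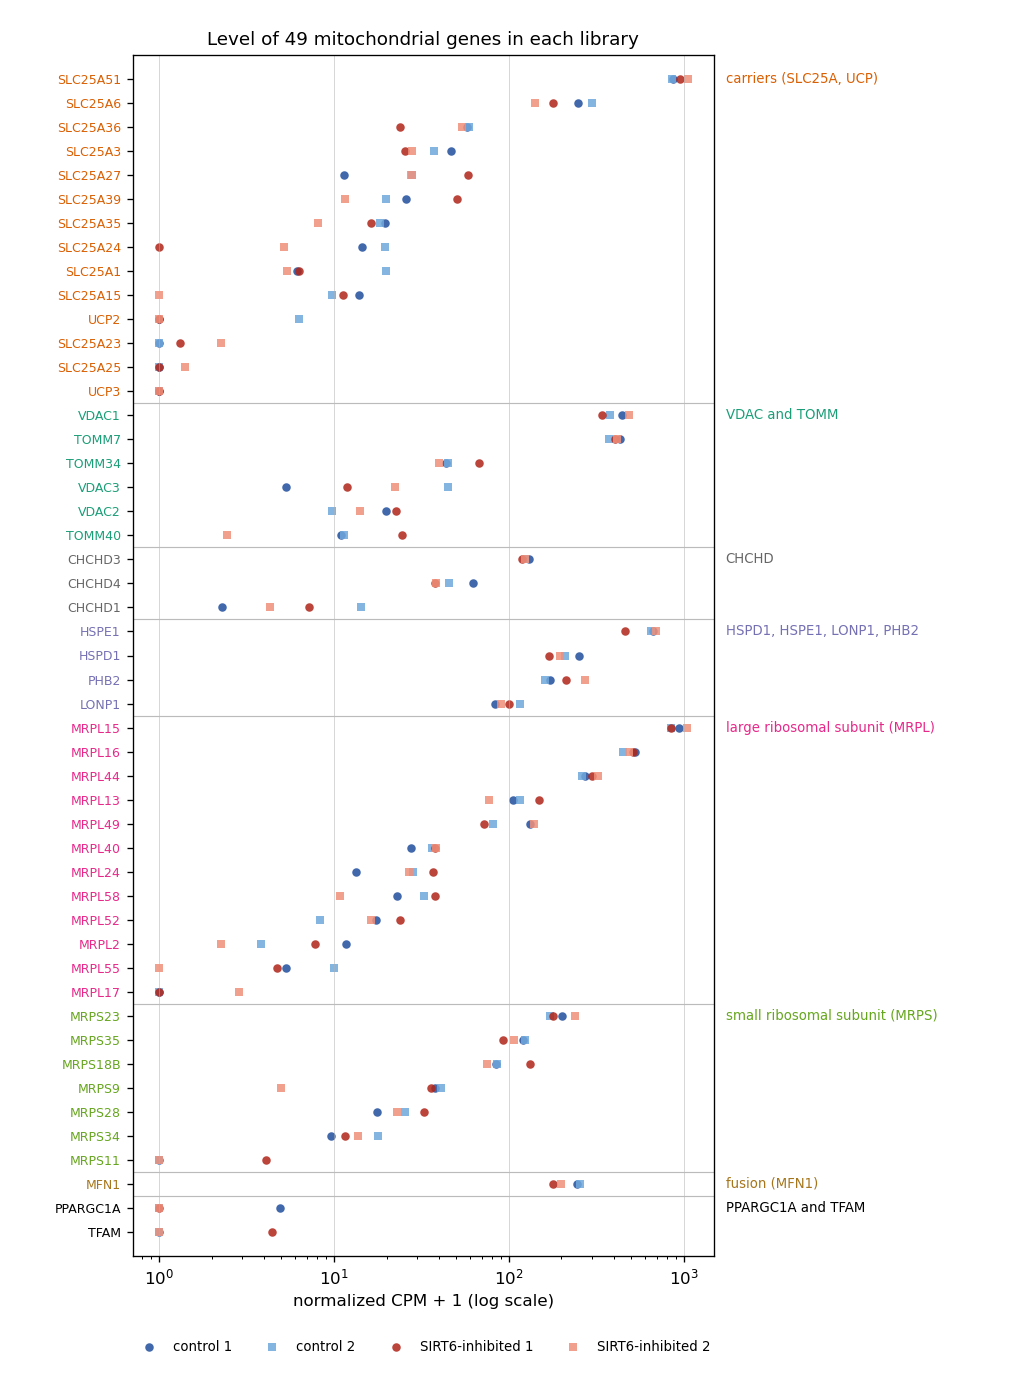
Level of 49 of the 50 genes in the 4 libraries, as normalized CPM plus 1 on a log scale, with points for single libraries (blue, control; red, SIRT6-inhibited) and genes grouped by role. SLC25A51 and MRPL15 lie between 840.3 and 1052 in all 4 libraries with points close together, while the points of genes at low levels such as SLC25A24 and VDAC3 lie far apart also within a group.

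After the filter on low counts, 42 of the 50 genes (84%) were tested with edgeR's quasi-likelihood test, in the same fit as all 2387 genes that passed. At an adjusted p-value under 0.05, 0 of the 42 genes differed between the groups in edgeR, where 0% of all tested genes were called, and DESeq2's Wald test called 0 of the 42 and 1.55% of all tested genes. At an unadjusted p-value under 0.05 in edgeR, 1 gene was lower in SIRT6-inhibited oocytes (SLC25A6, 2.38% of the 42, where 5.99% of all tested genes were called lower) and 1 was higher (PHB2, 2.38%, where 3.06% of all tested genes were called higher). DESeq2 called 1 of them, SLC25A6, at an unadjusted p-value under 0.05, where it called 9.93% of all genes in either direction. Both shares of the mitochondrial genes were below those of all genes. The count of 2 depended on single libraries: in edgeR it was 1 without control library 1, 0 without control library 2, 4 without SIRT6-inhibited library 1 and 5 without SIRT6-inhibited library 2, and in that order 0, 0, 1 and 0 genes passed adjustment. The calls over all genes moved with them: in the same order 5.80%, 4.40%, 11.7% and 11.01% of all tested genes had an unadjusted p-value under 0.05, and 0, 1, 77 and 25 genes passed adjustment. The median log2 fold change was -0.06 over the 42 genes, 23 lower and 19 higher, and -0.04 over all genes tested. With library totals only the split was 27 lower and 15 higher with a median of -0.12, and over the 35 genes with at least 10 counts per library it was 17 and 18, with a median of 0.01.

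The SIRT6-inhibited libraries lay below both control libraries for 11 of the 42 genes (26.2%, against 22.2% of all tested genes) and above both for 4 (9.52%, against 17.9%). The 11 were SLC25A6, SLC25A3, SLC25A24, SLC25A35, SLC25A36, MFN1, HSPD1, CHCHD4, MRPS9, MRPS35 and MRPL55, and the 4 were PHB2, SLC25A51, MRPL40 and MRPL44, some of which fall outside the rule for named genes and are given after their values were seen. The share of genes without overlap in either direction was 35.7% for the mitochondrial genes and 40.1% for all genes, so the count is not a result about mitochondrial genes.

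**Figure D2:**
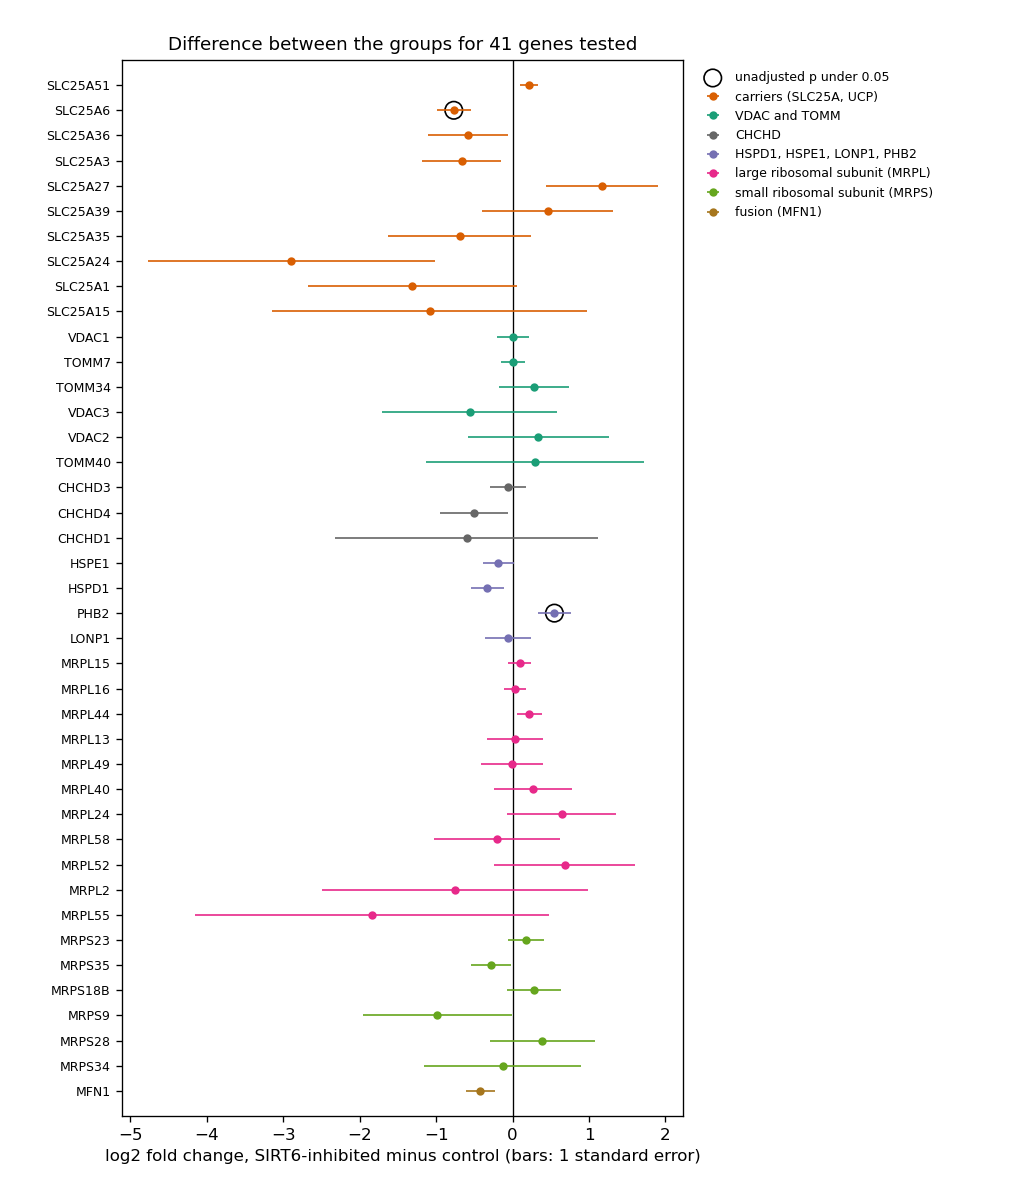
Log2 fold change of 41 of the 42 tested genes, SIRT6-inhibited minus control, with bars of 1 standard error and colours for roles; circles mark an unadjusted p-value under 0.05 in edgeR. SLC25A6 at -0.77 and PHB2 at 0.55 are the circled genes, and 7 of the 10 carriers drawn lie left of 0.

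Of the 15 carrier genes listed, 11 were tested, of which 8 (72.7%) had lower and 3 higher fitted levels in SIRT6-inhibited oocytes, with a median log2 fold change of -0.69. Of all tested genes 52.8% were lower, and of those outside the mitochondrial set with a mean under 100 counts 58.9% were, and whether the carriers differed from these was not tested. The split of 8 and 3 was the same with RLE factors, with library totals only and with the 10 most abundant genes left out. It moved with the libraries: 9 were lower and 3 higher without control library 1 (median -0.72), 7 and 3 without control library 2 (-0.61), 10 and 2 without SIRT6-inhibited library 1 (-1.20) and 9 and 3 without SIRT6-inhibited library 2 (-0.52). SLC25A6 was the 1 carrier with an unadjusted p-value under 0.05, and 0 had an adjusted one in edgeR or DESeq2.

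SLC25A6 encodes an ADP/ATP carrier, which exchanges ATP made in the matrix for cytosolic ADP. Its level was 248 and 297 normalized CPM in controls (libraries 1 and 2, here and below in this order) and 179 and 141 normalized CPM in SIRT6-inhibited oocytes. Both SIRT6-inhibited libraries were below both control libraries, and the gap between the groups was wider than the gap within either. The mean was 272 ± 34.7 normalized CPM (SD, n = 2) in controls and 159.7 ± 26.8 (SD, n = 2) in SIRT6-inhibited oocytes. The log2 fold change of SLC25A6 was -0.77 (SE 0.22, edgeR adjusted p = 0.460), which did not pass adjustment over all genes. Its unadjusted p-value was under 0.05 in all 8 settings of normalization, filter, test and block, with adjusted p-values between 0.0964 and 0.460 in edgeR or DESeq2. Without control library 2 the log2 fold change was -0.64 and the unadjusted p-value was above 0.05. The ADP/ATP carriers are near-identical paralogs whose reads a counting step can split, and SLC25A4, SLC25A5 and SLC25A31 were not analysed here, so the level of SLC25A6 is uncertain.

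SLC25A51, which carries NAD+ into the matrix, had 874 and 857 normalized CPM in the control libraries and 952 and 1052 normalized CPM in the SIRT6-inhibited libraries. Both SIRT6-inhibited libraries were above both control libraries, and the control libraries were almost equal. The log2 fold change of SLC25A51 was 0.21 (SE 0.12), and the difference did not pass the test (edgeR adjusted p = 0.696). With 3043 counts or more in every library it was among the best covered of the genes, and its log2 fold change was between 0.15 and 0.23 over the 8 settings and between 0.14 (without SIRT6-inhibited library 2) and 0.28 (without SIRT6-inhibited library 1) with a library left out.

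SLC25A51 made up most of the carrier reads, so the summed carrier level, 1309 and 1372 normalized CPM in controls and 1319.8 and 1328 in SIRT6-inhibited oocytes, largely follows it. Without SLC25A51, an omission chosen after seeing the data, the other 14 carriers summed to 435 and 515 normalized CPM in controls and 368 and 276 in SIRT6-inhibited oocytes. Both SIRT6-inhibited libraries were below both control libraries in that sum. Without SLC25A6 as well, the sums of 13 carriers were 188 and 219 normalized CPM in controls and 189 and 135 in SIRT6-inhibited oocytes, and the groups overlapped.

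The other carriers had few counts and wide errors. SLC25A24, an exchanger of ATP-Mg and phosphate that calcium regulates, had 62 and 66 counts in controls and 0 and 20 counts in SIRT6-inhibited oocytes. All SIRT6-inhibited values were below the controls, with 1 library at 0. The fitted log2 fold change of SLC25A24 was -2.90 with an SE of 1.88 (edgeR adjusted p = 0.767), the lowest of the 42 genes, and it rests in part on the library at 0. It was -1.94 without that library, -8.93 with an unadjusted p-value under 0.05 without SIRT6-inhibited library 2, which leaves the library at 0 alone, and -4.24 with the replicate block. SLC25A27, an uncoupling protein of neurons also called UCP4, had the highest fitted value, 1.17 (SE 0.73, edgeR adjusted p = 0.750), from 10.4 and 27.0 normalized CPM in controls and 57.5 and 26.5 in SIRT6-inhibited oocytes. Its control library 2 and SIRT6-inhibited library 2 were nearly equal, so the groups overlapped. The value of SLC25A27 was 0.62 without control library 1, 2.01 without control library 2, 0.50 without SIRT6-inhibited library 1 and 1.62, with an unadjusted p-value under 0.05, without SIRT6-inhibited library 2.

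SLC25A3, the phosphate carrier, had 45.6 and 36.3 normalized CPM in controls and 24.5 and 27.1 in SIRT6-inhibited oocytes. Both inhibited libraries were the lower ones, by a log2 fold change of -0.66 with an SE of 0.52. SLC25A36, a carrier of pyrimidine nucleotides, had 56.8 and 58.3 normalized CPM in controls and 23.0 and 53.3 in SIRT6-inhibited oocytes. Here SIRT6-inhibited library 1 alone was far from the controls, and the log2 fold change of -0.59 was -0.11 without it and -1.32, with an unadjusted p-value under 0.05, without SIRT6-inhibited library 2. SLC25A15, the ornithine carrier, had 60 and 31 counts in controls and 33 and 0 counts in SIRT6-inhibited oocytes, and the groups overlapped after scaling. Its fitted log2 fold change of -1.09 was -8.56, with an unadjusted p-value under 0.05, without SIRT6-inhibited library 1, which leaves the library at 0 alone, and -0.08 without SIRT6-inhibited library 2. SLC25A1, the citrate carrier, had 24 and 67 counts in controls and 17 and 21 counts in SIRT6-inhibited oocytes, and the groups overlapped after scaling, with a log2 fold change of -1.31 that was -0.11 without control library 2 and -1.97 without control library 1. Of the untested carriers, UCP2 had 19 counts in control library 2 and 0 in the other 3 libraries, SLC25A23 had 1 and 6 counts in the SIRT6-inhibited libraries and 0 in controls, and SLC25A25 had 2 counts in SIRT6-inhibited library 2 and 0 in the others.

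**Figure D3:**
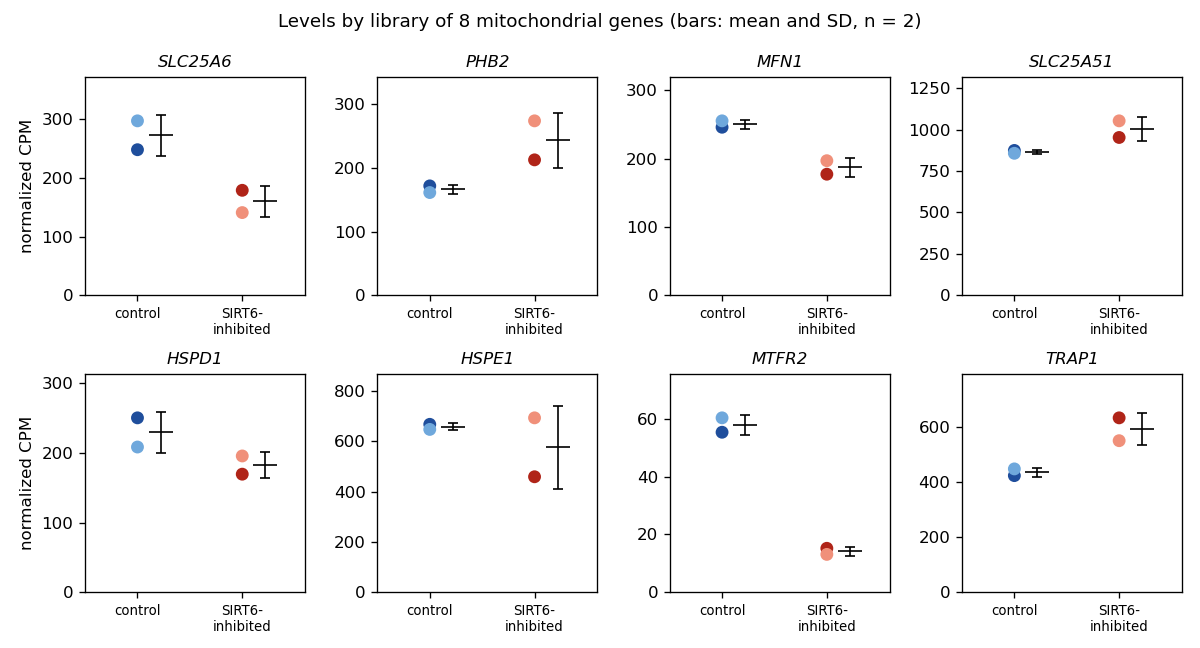
Normalized CPM of 8 genes in each library (points; blue, control; red, SIRT6-inhibited), with the mean and SD of the 2 libraries of a group beside them and axes that start at 0. The groups do not overlap for SLC25A6, PHB2, MFN1, SLC25A51, HSPD1, MTFR2 and TRAP1, while HSPE1 is at 459 in SIRT6-inhibited library 1 and at 693 in SIRT6-inhibited library 2.

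VDAC1, the main pore for metabolites and ions in the outer membrane, had 442 and 380.3 normalized CPM in control libraries and 340.2 and 483 normalized CPM in SIRT6-inhibited libraries. The SIRT6-inhibited libraries enclosed the controls on both sides. Its log2 fold change was 0.00 (SE 0.21), and its sign turned with the scaling, to -0.06 with library totals only. TOMM7, a small subunit that stabilizes the TOM complex, had 434 and 376 normalized CPM in controls and 402 and 413 in SIRT6-inhibited oocytes. The inhibited values lay between the control values, with a log2 fold change of 0.01 (SE 0.16) that became -0.05 with library totals only.

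VDAC2 and VDAC3, paralogs of VDAC1, had far fewer reads. VDAC2 had 87 and 31 counts in controls and 70 and 63 counts in SIRT6-inhibited oocytes. VDAC3 had 20 and 155 counts in controls and 35 and 103 counts in SIRT6-inhibited oocytes. The control libraries of VDAC3 differed more from each other than either did from the SIRT6-inhibited ones, and the ratio of VDAC1 to VDAC3 counts ranged from 8.72 to 102 over the 4 libraries. TOMM40, the channel of the TOM complex, had 46 and 37 counts in controls and 76 and 7 counts in SIRT6-inhibited oocytes, so that 1 inhibited library was above and 1 below both controls. TOMM34, a cytosolic co-chaperone of import, had 156 counts or more in every library and overlapping groups. Over the 6 genes, 5 had fitted values above 0 and 1 below, a split that was 3 and 3 with library totals only, without control library 2 and without SIRT6-inhibited library 2, and 2 above and 4 below without SIRT6-inhibited library 1, and 0 of the 6 had groups without overlap, where 40.1% of all tested genes had.

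Mitochondrial ribosomal proteins were the role with the most genes, 19 listed and 17 tested. Of the 17, 7 had lower and 10 higher fitted levels, with a median log2 fold change of 0.03, and 0 had an unadjusted or adjusted p-value under 0.05 in edgeR or DESeq2 with all 4 libraries. Without SIRT6-inhibited library 1 the split was 9 lower and 8 higher, with a median of -0.00 and MRPS9 called. The large-subunit (MRPL) genes were split 4 lower and 7 higher, which became 6 and 5 with library totals only, and the small-subunit (MRPS) genes 3 and 3. The summed level of the 12 large-subunit genes was 2067 and 1861 normalized CPM in controls and 2023 and 2168 in SIRT6-inhibited oocytes. That of the 7 small-subunit genes was 464 and 459.7 normalized CPM in controls and 482 and 458 in SIRT6-inhibited oocytes. Both sums overlapped between the groups, as the plot of summed levels shows.

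MRPL15 had 941 and 840.3 normalized CPM in controls and 850.3 and 1049.5 in SIRT6-inhibited oocytes. The groups overlapped, with a log2 fold change of 0.09 (SE 0.15). The value of MRPL15 was 0.23 without SIRT6-inhibited library 1 and turned to -0.07 without SIRT6-inhibited library 2. MRPL16 had 525 and 451 normalized CPM in controls and 510.5 and 488 in SIRT6-inhibited oocytes. Its inhibited values lay within the control range, with a log2 fold change of 0.03 (SE 0.15) that became -0.02 with library totals only. The ratio of MRPL15 to MRPL16 counts, a comparison within each library, was 1.79 and 1.86 in controls and 1.67 and 2.15 in SIRT6-inhibited oocytes.

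MRPL44, a large-subunit protein with a ribonuclease fold, had 273 and 261 normalized CPM in controls and 298 and 324 in SIRT6-inhibited oocytes. Both inhibited libraries were above both controls, and the difference of 0.22 on the log2 scale (SE 0.17) did not pass the test (edgeR adjusted p = 0.861). MRPL49 had 131 and 80.5 normalized CPM in controls and 71.5 and 139 in SIRT6-inhibited oocytes. The means were almost the same, although each group held 1 high and 1 low library. The log2 fold change of MRPL49 was -0.01 (SE 0.41) and turned to 0.01 with RLE factors. It was 0.38 without control library 1, -0.32 without control library 2, 0.38 without SIRT6-inhibited library 1 and -0.57 without SIRT6-inhibited library 2. MRPL55 had 20 and 32 counts in controls and 12 and 0 counts in SIRT6-inhibited oocytes, with a fitted log2 fold change of -1.84 whose SE was 2.32. Its fitted value was -0.83 without the library at 0, -7.86 with that library alone in its group and -3.35 with the replicate block.

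In the small subunit, MRPS23 had 199.5 and 171 normalized CPM in controls and 178 and 239 in SIRT6-inhibited oocytes, and the groups overlapped. MRPS35 had 119 and 122 normalized CPM in controls and 91.96 and 106 in SIRT6-inhibited oocytes. Both inhibited libraries were below both controls for MRPS35, by -0.28 on the log2 scale (SE 0.26, edgeR adjusted p = 0.922), which was -0.19 without SIRT6-inhibited library 1 and -0.40 without SIRT6-inhibited library 2. MRPS9, picked out after its values were seen, had 171 and 142 counts in controls and 113 and 19 counts in SIRT6-inhibited oocytes. SIRT6-inhibited library 2 alone was low, and SIRT6-inhibited library 1, at 35.1 normalized CPM, was close to the controls at 36.9 and 39.97. The log2 fold change of MRPS9 was -0.98, and it was -3.28 without SIRT6-inhibited library 1 and -0.13 without SIRT6-inhibited library 2. Without SIRT6-inhibited library 1, MRPS9 was the 1 of 44 mitochondrial genes tested (2.27%) with an adjusted p-value under 0.05 in edgeR, where 2.98% of all tested genes passed. Of the ribosomal genes not tested, MRPL17 had 9 counts in SIRT6-inhibited library 2, MRPS11 had 10 counts in SIRT6-inhibited library 1, and both had 0 counts elsewhere.

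**Figure D4:**
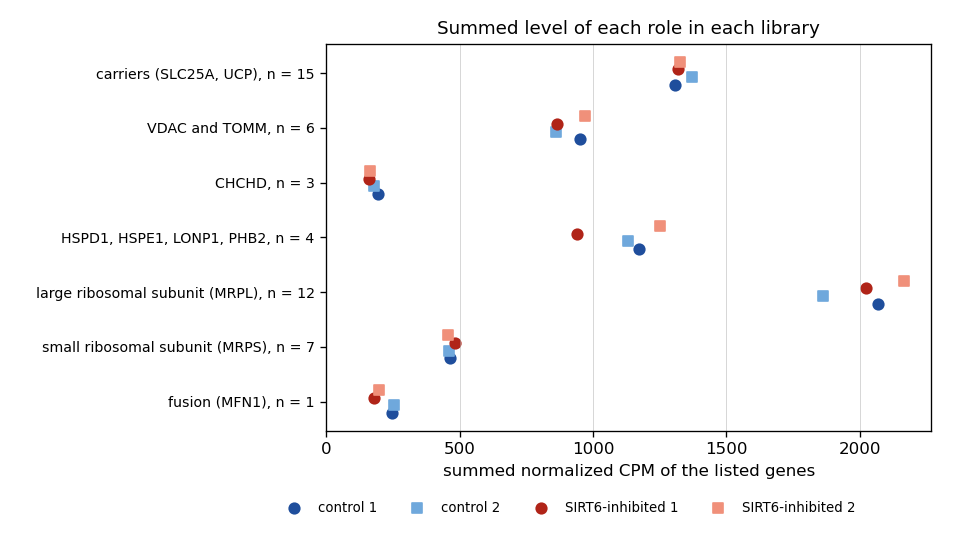
Summed normalized CPM of the listed genes of each role in each library (blue, control; red, SIRT6-inhibited; n is the number of genes summed). The SIRT6-inhibited libraries overlap with the control libraries for carriers, VDAC and TOMM genes and both ribosomal subunits, lie below both for CHCHD genes and MFN1, and lie on either side of them, at 941 and 1251, for HSPD1, HSPE1, LONP1 and PHB2.

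MFN1, a GTPase of the outer membrane that tethers and fuses mitochondria, was the 1 fusion or fission gene under the rule that was listed. It had 246 and 255 normalized CPM in control libraries and 177 and 197 normalized CPM in SIRT6-inhibited libraries. The groups did not overlap, with the inhibited libraries lower, and the libraries of each group were close to each other. The mean was 250.4 ± 6.60 normalized CPM (SD, n = 2) in controls and 187 ± 13.95 (SD, n = 2) in SIRT6-inhibited oocytes. The log2 fold change of MFN1 was -0.42 (SE 0.19, edgeR adjusted p = 0.570), and its unadjusted p-value was above 0.05. With library totals only, it was -0.48 and the unadjusted p-value was under 0.05.

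Genes of mitochondrial DNA maintenance and biogenesis were at the limit of detection. TFAM, which packages mitochondrial DNA and starts its transcription, had 0 counts in both control libraries, 11 counts in SIRT6-inhibited library 1 and 0 in SIRT6-inhibited library 2. PPARGC1A, a coactivator of genes of mitochondrial biogenesis, had 18 counts in control library 1 and 0 in the other 3 libraries. For each gene 1 library held all the counts, neither gene was tested, and no difference between the groups was detectable at this depth.

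PHB2 encodes a prohibitin, a scaffold protein of the inner membrane that also acts as a receptor in mitophagy. It had 171 and 161 normalized CPM in control libraries and 212 and 273 normalized CPM in SIRT6-inhibited libraries. Both inhibited libraries were above both controls, and they were further apart from each other than the controls were. The mean was 166 ± 7.36 normalized CPM (SD, n = 2) in controls and 243 ± 43.2 (SD, n = 2) in SIRT6-inhibited oocytes, a log2 fold change of 0.55 (SE 0.22, edgeR adjusted p = 0.534). The unadjusted p-value was under 0.05 in 5 of the 8 settings and above it with library totals only, with DESeq2 and with the replicate number as a block. It was also above 0.05 without control library 1 (log2 fold change 0.58), without control library 2 (0.50) and without SIRT6-inhibited library 2 (0.35).

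HSPD1 and HSPE1 encode the chaperonin of the matrix and its lid, which fold imported proteins together. HSPD1 had 250.5 and 209 normalized CPM in control libraries and 169.6 and 196 normalized CPM in SIRT6-inhibited libraries. HSPE1 had 667 and 647 normalized CPM in control libraries and 459 and 693 normalized CPM in SIRT6-inhibited libraries. SIRT6-inhibited library 1 was the lowest for both genes, but SIRT6-inhibited library 2 was just below the controls for HSPD1 and above them for HSPE1. The log2 fold changes were -0.33 for HSPD1 (SE 0.21, edgeR adjusted p = 0.768) and -0.19 for HSPE1 (SE 0.20, edgeR adjusted p = 0.956). The value of HSPE1 turned to 0.07 without SIRT6-inhibited library 1 and was -0.52, with an unadjusted p-value under 0.05, without SIRT6-inhibited library 2, and that of HSPD1 was -0.20 without control library 1 and -0.46 without control library 2. The ratio of HSPE1 to HSPD1 counts was 2.66 and 3.10 in controls and 2.71 and 3.54 in SIRT6-inhibited oocytes, and the groups overlapped. LONP1, the main protease of the matrix, had 82.0 and 115 normalized CPM in controls and 99.7 and 88.9 in SIRT6-inhibited oocytes, between the control values.

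CHCHD4, the oxidoreductase that imports cysteine-rich proteins into the intermembrane space, had 61.1 and 44.5 normalized CPM in controls and 37.0 and 37.3 in SIRT6-inhibited oocytes. The SIRT6-inhibited libraries were nearly equal and below both controls, and the log2 fold change of -0.51 (SE 0.44) did not pass the test (edgeR adjusted p = 0.906). It was -0.27 without control library 1 and -0.72 without control library 2. CHCHD3, a subunit of the MICOS complex of cristae junctions, had 129 and 122 normalized CPM in controls and 118 and 123 in SIRT6-inhibited oocytes, and the groups overlapped. CHCHD1, a protein of the small ribosomal subunit, had 6 and 47 counts in controls and 20 and 16 counts in SIRT6-inhibited oocytes, and the groups overlapped. All 3 had fitted values below 0 under each scaling tried, with a median of -0.51. Without control library 2, 2 were below 0 and 1 above, with a median of -0.10, and the median was -0.27 without control library 1 and -0.22 without SIRT6-inhibited library 2.

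The genes were also split by their mean count over the 4 libraries, at 100 counts, a limit put on the mean after the data were seen. In the 25 tested genes with a mean of 100 counts or more, log2 fold changes ran from -0.98 (MRPS9) to 1.17 (SLC25A27), with a median size of 0.27 and a median SE of 0.24. In the 17 with a lower mean, such as SLC25A24 and MRPL55, they ran from -2.90 to 0.68, with a median size of 0.64 and a median SE of 1.14. The other tested genes had a median size of 0.24 and a median SE of 0.27 at 100 counts or more, and 0.85 and 1.70 below.

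Of the 25 genes, 12 were lower and 13 higher (48% lower, beside 48.8% of the 1411 other genes with such means), and 12 had groups without overlap (48%, beside 43.7%). Of the 17 genes, 11 were lower and 6 higher (64.7% lower, beside 58.9% of the 934 other genes), and 3 had groups without overlap (17.6%, beside 34.9%). Between the SIRT6-inhibited libraries, 21 of the 42 genes differed by at least 1.5-fold (50.0%, beside 45.4% of all tested genes), and between the control libraries 12 did (28.6%, beside 40.3%). None of these shares was tested against the others.

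**Figure D5:**
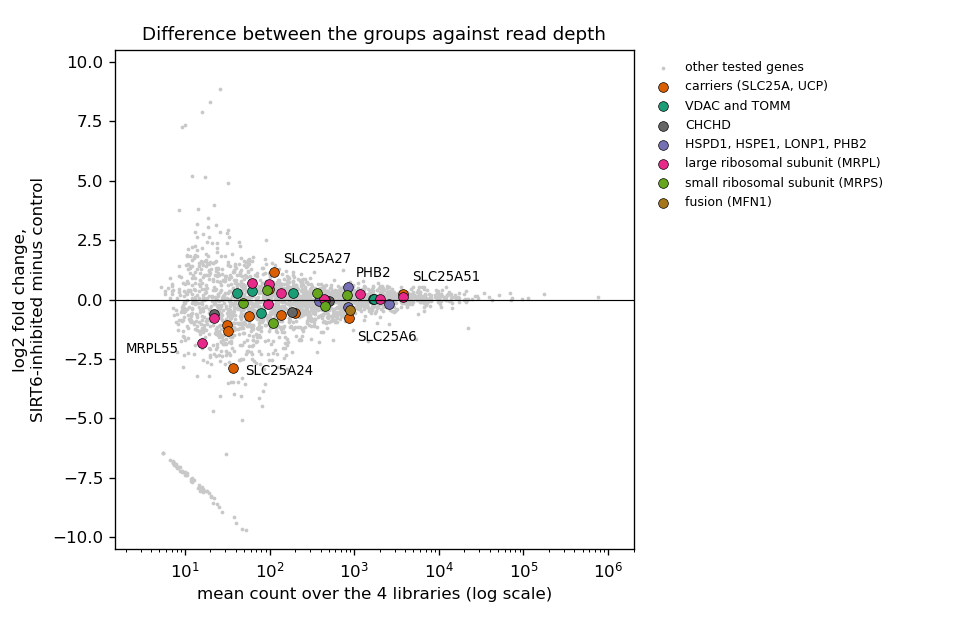
Log2 fold change, SIRT6-inhibited minus control, against the mean count over the 4 libraries on a log scale, with 41 of the 42 mitochondrial genes in colour by role over all other tested genes in grey. The values of the mitochondrial genes run from -2.90 to 0.68 where the mean is under 100 counts and from -0.98 to 1.17 above it, and the grey points on slanted lines near the bottom and top are genes with 0 counts in both libraries of a group.

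Other mitochondrial genes outside the rule were given by 4 lists of 148 symbols in all, of which 28 were listed in the table and 24 tested. Of the 24, 14 had lower and 10 higher fitted levels, with a median log2 fold change of -0.09, which turned to 0.07 without control library 1, 0.05 without SIRT6-inhibited library 1 and 0.02 without SIRT6-inhibited library 2. In edgeR 1 was lower and 1 higher at an unadjusted p-value under 0.05 (4.17% each, beside 5.99% and 3.06% of all tested genes), as in DESeq2, and 0 had an adjusted one in either tool. These shares were near those of all genes, so the counts are not a result about the lists. Both were in the list for dynamics, proteolysis and mitophagy, of which 7 genes were tested. Of the lists for import and MICOS (6 tested), mitochondrial DNA and its expression (6 tested) and translation (5 tested), 0 genes had an unadjusted or adjusted p-value under 0.05 in edgeR or DESeq2 with all 4 libraries, while edgeR called DNAJC19 at an unadjusted one without SIRT6-inhibited library 1 and PTCD3 without SIRT6-inhibited library 2. Groups did not overlap for 5 of the 6 genes of the mitochondrial DNA list (83.3%, beside 40.1% of all tested genes): SLIRP, TBRG4, ELAC2 and MTPAP were higher and PNPT1 lower in SIRT6-inhibited oocytes, named after their values were seen. The numbers were 0 of 6 for import and MICOS, 1 of 5 for translation and 3 of 7 for dynamics, proteolysis and mitophagy, and over the 24 genes 3 lower and 6 higher (37.5%). Whether the share of any list differed from that of all genes was not tested.

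MTFR2, a regulator of mitochondrial fission, had 55.3 and 60.2 normalized CPM in control libraries and 15.2 and 13.1 normalized CPM in SIRT6-inhibited libraries. The inhibited libraries lay far below the controls, and the libraries of each group were close. The log2 fold change of MTFR2 was -2.03 (SE 0.51, edgeR adjusted p = 0.460), its unadjusted p-value was under 0.05 in all 8 settings, and its values with each library left out ran from -2.14 to -1.92. TRAP1, a mitochondrial chaperone of the HSP90 family, had 424 and 448 normalized CPM in controls and 634 and 551 in SIRT6-inhibited oocytes. Its inhibited libraries were above both controls, with a log2 fold change of 0.44 (SE 0.15, edgeR adjusted p = 0.487). The unadjusted p-value of TRAP1 was above 0.05 without control library 1 (log2 fold change 0.39) and without SIRT6-inhibited library 1 (0.33). MFF, which recruits the fission GTPase to the outer membrane, had 879 and 726 normalized CPM in controls and 755 and 692 in SIRT6-inhibited oocytes, and the groups overlapped. MTRF1, a release factor of the mitochondrial ribosome, had 12 and 20 counts in controls and 0 in both SIRT6-inhibited libraries. This is at least 5.28-fold lower when the SIRT6-inhibited mean is set to 3 counts per library, and the gene did not pass the test. The bound rests on the mean of control libraries at 2.59 and 5.63 normalized CPM, and is smaller for control library 1 alone. The fitted log2 fold change of -7.07 was between -7.46 and -6.98 with control library 1 or a SIRT6-inhibited library left out. Without control library 2, MTRF1 kept 12 counts, below the filter's minimum total of 15, and had no fitted value. With MTRF1 at the 5.28-fold bound the median over the 24 genes was the same.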

How the data were processed

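Whole-number read counts for each gene symbol in 4 libraries were deposited, not normalized. The submitters' processing notes name TopHat2 2.0.13, Cufflinks 2.2.1, Cuffnorm and Cuffdiff and the builds mm10 and susScr11 without saying which made the counts, and the counting tool, annotation and strand setting are not given in the sources used here. No coordinates or sequences are printed for that reason, and all 50 of the 50 gene symbols matched the porcine RefSeq table, which was used for names only. The table lists 4381 symbols, so totals are counts on these genes and not the full depth. Columns were matched to samples by group and replicate number.

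Counts were analysed with edgeR 4.0.16, DESeq2 1.42.0 and limma 3.58.1 in R 4.3.3. Genes were kept by filterByExpr (minimum count 10, minimum total 15), scaled by TMM factors and compared with edgeR's two-sided quasi-likelihood test, and p-values were adjusted by Benjamini-Hochberg over the 2387 genes kept. The common biological coefficient of variation was 0.651. SEs were obtained from each log2 fold change and its F statistic (absolute fold change over the root of F). With 2 libraries in each group the smallest exact permutation p is 0.333, so that test was not used. The fit was tested on simulated data.

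The mitochondrial genes and all gene lists were chosen with earlier results of these data known. Named genes were those with an unadjusted p-value under 0.05, the 2 of each role with the highest mean level, and the ADP/ATP carriers. All fusion, fission, mitochondrial DNA and biogenesis genes listed were also named. So were those without overlap between groups and with fold changes of 1 log2 or more in either direction. The 3 with the smallest fold change among those with at least 100 counts in each library were included. From the other lists, those with an unadjusted p-value under 0.05 were named. Further genes were named after their values were seen. Among them were the carriers apart from SLC25A6, SLC25A24 and SLC25A51, and VDAC2, VDAC3, TOMM34, TOMM40, MRPL17, MRPL40, MRPL44, MRPS9 and MRPS11. Others were LONP1, CHCHD1, MFF, MTRF1, DNAJC19, PTCD3, SLIRP, TBRG4, ELAC2, MTPAP and PNPT1. The result of 1 gene is not reported here, and it is left out of the plots of single genes but not of counts and sums. Alternatives were RLE factors, library totals only, the 10 most abundant genes left out, no filter, at least 10 counts in every library, DESeq2's Wald test, the replicate number as a block and leaving out each library. A count of 8 settings covers the analysis above and these alternatives apart from left-out libraries.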

Additional observations from a re-analysis of the deposited data

How the results depend on the processing

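At an unadjusted p-value below 0.05 edgeR called 2 mitochondrial genes, and the count was 1 with DESeq2 and 1 with the replicate block, and 2 with each other normalization or filter, where library totals only gave MFN1 (log2 fold change -0.48) in place of PHB2. Leaving out 1 library at a time, where the lone library of a group is assumed to vary like the other group, gave 0 to 5 genes (0 without control library 2, 5 without SIRT6-inhibited library 2). The number with an adjusted p-value under 0.05 was 0 in every setting except without SIRT6-inhibited library 1, so it ran from 0 to 1. The median log2 fold change was 0.00651 with at least 10 counts in every library, and it ran from -0.173 to -0.0430 with a library left out. With a library left out, 28 to 30 genes had groups without overlap, because fewer libraries overlap less often. The share of all tested genes without overlap was counted only with no library left out. The 28 to 30 genes therefore have no share of all genes beside them and are not a result about mitochondrial genes. With the replicate block, log2 fold changes were 0.54 for PHB2, which was then no longer called, and -0.0145 for VDAC1. Deviations of libraries with the same number had a correlation of -0.117 across all genes. With crossed numbers, chosen after the data were seen, 2 genes had an unadjusted and 0 an adjusted p-value under 0.05.

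Small fold changes turned sign. VDAC1 was -0.0559 with library totals only, -0.00216 with the 10 most abundant genes left out, -0.0145 with the replicate block and -0.0137 with crossed numbers. With library totals only TOMM7 was -0.0472 and MRPL16 -0.0236. MRPL49 was 0.00761 with RLE factors and 0.00713 with DESeq2. With a library left out, values ran from -0.27 to 0.23 for VDAC1, -0.0954 to 0.109 for TOMM7, -0.0683 to 0.233 for MRPL15, -0.0774 to 0.138 for MRPL16, -0.0566 to 0.362 for MRPS23, -0.519 to 0.0722 for HSPE1 and -0.569 to 0.385 for MRPL49. The cause was not tested. SLC25A6 ran from -0.95 to -0.61, PHB2 from 0.35 to 0.71, SLC25A24 from -8.93 to -1.94, MRPL55 from -7.86 to -0.83, TRAP1 from 0.33 to 0.54, SLC25A51 from 0.14 to 0.28, CHCHD4 from -0.72 to -0.27, CHCHD3 from -0.105 to -0.0270, HSPD1 from -0.46 to -0.20, MRPS35 from -0.40 to -0.19 and MFN1 from -0.50 to -0.35. SLC25A24 and MRPL55 could not be tested at 10 counts in every library. No other gene under the naming rule changed its direction, and MTFR2 and TRAP1 were called in all 8 settings, MTFR2 also with each library left out and TRAP1 not without control library 1 or SIRT6-inhibited library 1.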
